A study of Homo sapiens with 3 samples.

Results

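The aryl hydrocarbon receptor (AhR) and its direct targets were followed on every probe set of the array that names exactly 1 gene, that gene being CYP1A1, CYP1A2, CYP1B1, ALDH3A1, AHRR, TIPARP, AHR or ARNT. The 8 genes, of 18132 named on the array, had 22 probe sets of 44988 that named 1 gene and 49395 in all. The genes were chosen by the log2 difference between the treated and the untreated arrays, which was already known, so their levels and differences are given as a description, with no test. FaDu is an established squamous carcinoma line of the hypopharynx. Its cells had been kept for 48 h with 10 µg/ml of NSC-631570, an extract of greater celandine (Chelidonium majus), or with distilled water in its place, in RPMI medium with fetal calf serum and antibiotics. The series asked how the extract changes gene expression in these cells, and total RNA on human PrimeView arrays gave 2 untreated arrays and 1 treated array. The treated group is a single array of 1 cell line and has no measured spread, and the labels do not say whether the untreated arrays came from separate cultures.

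The AhR is a transcription factor of the bHLH-PAS family that waits in the cytosol, bound to HSP90 and its cochaperones, until a small molecule such as a polycyclic aromatic compound, a tryptophan product or a plant compound binds it. It then enters the nucleus, pairs with ARNT and binds DNA elements with the core GCGTG near genes of xenobiotic metabolism. CYP1A1, CYP1A2 and CYP1B1 encode the P450 enzymes of family 1, which oxidise such ligands, and ALDH3A1 encodes an aldehyde dehydrogenase abundant in epithelia. AHRR encodes a repressor that competes with the receptor for ARNT, and TIPARP an ADP-ribosyltransferase that modifies the receptor and limits its activity, so both are targets that feed back on the pathway.

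The stretches before the transcription starts are shown for the core motif of the receptor. Of the 3 genes with probe sets at least 2-fold higher, only CYP1A1 is among them. The RefSeq promoter table (GRCh38.p14) held 9 starts of 6 members and no entry for CYP1B1 or ALDH3A1. Each sequence below is the 250 bases before a start, on the strand of the gene. Capitals mark the core, GCGTG, or its reverse complement CACGC. The stretches lie at chr15:74725529-74725778 on the minus strand for CYP1A1, at chr15:74748595-74748844 on the plus strand for CYP1A2, at chr5:321464-321713 on the plus strand for AHRR and at chr3:156674340-156674589 on the plus strand for TIPARP, the last 2 from the first of several starts.
CYP1A1: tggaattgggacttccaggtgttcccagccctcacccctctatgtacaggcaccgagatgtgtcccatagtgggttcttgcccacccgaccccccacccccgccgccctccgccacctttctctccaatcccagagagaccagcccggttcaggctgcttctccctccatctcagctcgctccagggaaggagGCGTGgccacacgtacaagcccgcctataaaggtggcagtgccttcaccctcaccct
CYP1A2: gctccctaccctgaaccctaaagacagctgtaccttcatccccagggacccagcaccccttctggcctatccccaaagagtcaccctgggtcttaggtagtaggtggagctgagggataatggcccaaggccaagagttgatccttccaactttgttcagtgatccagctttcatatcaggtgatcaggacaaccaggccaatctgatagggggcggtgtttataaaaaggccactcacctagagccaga
AHRR: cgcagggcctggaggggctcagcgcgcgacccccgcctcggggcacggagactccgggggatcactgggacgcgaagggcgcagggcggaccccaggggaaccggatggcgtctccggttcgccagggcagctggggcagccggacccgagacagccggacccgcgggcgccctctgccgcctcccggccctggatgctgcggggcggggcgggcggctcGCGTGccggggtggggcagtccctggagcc
TIPARP: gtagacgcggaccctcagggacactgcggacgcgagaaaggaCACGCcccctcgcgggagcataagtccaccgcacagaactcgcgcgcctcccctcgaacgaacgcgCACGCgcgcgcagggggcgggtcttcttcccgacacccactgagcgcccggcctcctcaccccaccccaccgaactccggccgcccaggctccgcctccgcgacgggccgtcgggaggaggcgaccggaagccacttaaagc

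The core was found on either strand before 4 of the 9 member starts, and 32.2% of 35116 RefSeq promoters of the same length hold it. CYP1A1 has 1 core on the gene strand, its first base 57 bases before the start, and a TATA box (TATAAA, held by 10.7% of all promoters on either strand) 32 bases before it. CYP1A2 has no core in the window, and its TATA box lies 29 bases before the start. AHRR has 1 core before its first start, 30 bases away, which also matches the longer form TNGCGTG (4.52% of all promoters), and 2 cores before its second start. TIPARP has 2 cores before its first start, on the opposite strand, 208 and 142 bases away, and none before the other 2. AHR and ARNT have none in these windows. AHR has the E-box CACGTG, a palindrome that does not overlap the core, 165 bases before its start (6.34% of all promoters). A match is a stretch of letters and not a measured binding site. Bases farther from the starts were not searched, so a gene without a core here may have one elsewhere. CYP1A1 and CYP1A2 are neighbours on chromosome 15, read from opposite strands.

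**Figure D1:**
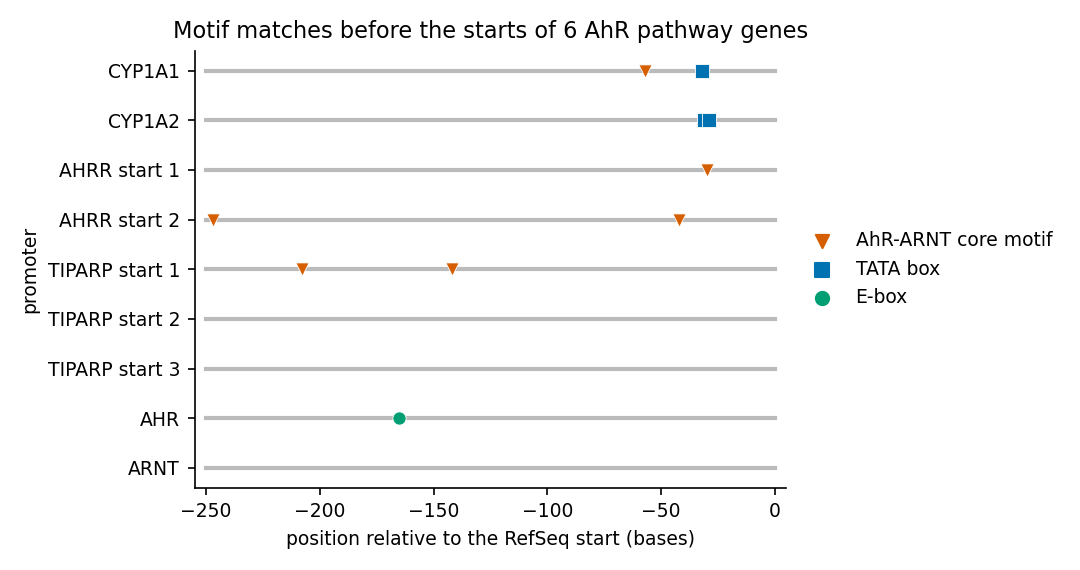
Motif matches in the 250 bases before 9 RefSeq starts of 6 genes, by distance from the start in bases (x axis). Triangles are the AhR-ARNT core on either strand, squares TATA boxes and the circle an E-box; CYP1A1, AHRR and TIPARP hold the core, CYP1A2, AHR and ARNT do not.

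In the treated array 7 of the 22 probe sets stood at least 2-fold above both untreated arrays. Among all probe sets that name 1 gene, 0.445% did so (200 of 44988). The 7 belonged to 3 genes, CYP1A1, CYP1B1 and ALDH3A1, with log2 differences from the untreated mean between 1.25 and 4.57 and standard errors between 0.19 and 0.30 (SE from limma fitted over all probe sets that name 1 gene, 2 untreated arrays against 1 treated array). No member probe set stood 2-fold below both, where 1.67% of all probe sets did. The other 15 probe sets, among them all of CYP1A2, AHRR, TIPARP, AHR and ARNT, differed from the untreated mean by −0.93 to 0.91 (SE 0.19 to 0.32). Of the 22, 12 lay above both untreated arrays, 3 below both and 7 between them. In RNA from whole cultures, more cells with a transcript and more transcript per cell cannot be told apart. Over all probe sets that name 1 gene the median difference was 0.02, with 38.7% above both arrays and 33.3% below both.

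**Figure D2:**
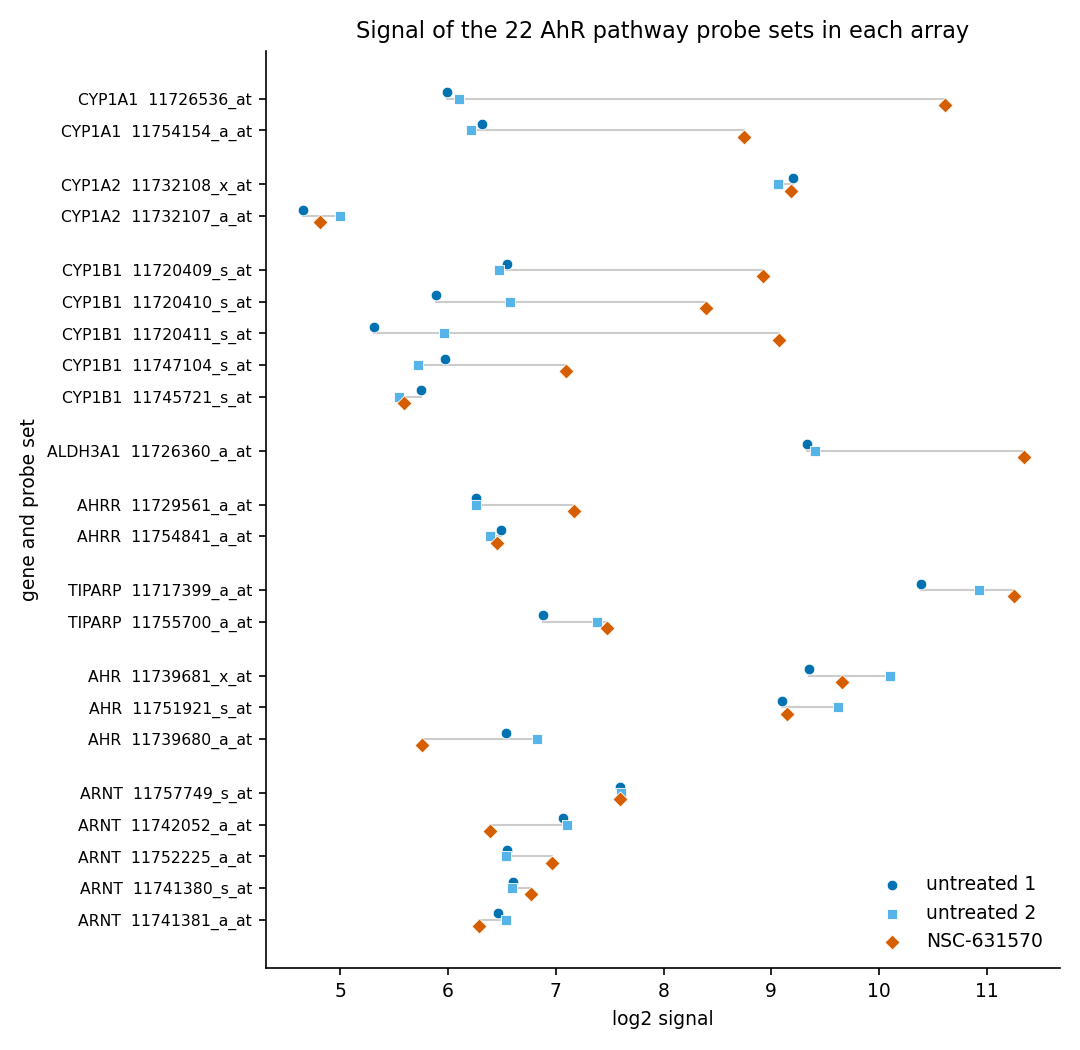
Log2 signal (x axis) of each of the 22 probe sets in untreated 1 (circles), untreated 2 (squares) and the NSC-631570 array (diamonds), with the 3 markers of a row set slightly apart in height. The diamonds of both CYP1A1, 4 of 5 CYP1B1 and the ALDH3A1 probe sets lie far to the right of both untreated markers, while those of CYP1A2 lie between them.

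CYP1A1, the P450 most widely used as a readout of AhR activity, had the largest difference of all 44988 probe sets that name 1 gene. On probe set 11726536_at the log2 signal was 5.99 in untreated 1, 6.10 in untreated 2 and 10.62 in the treated array. The treated array was thus 23.8-fold above the untreated mean, by 4.63 from untreated 1 and 4.51 from untreated 2 on the log2 scale. On probe set 11754154_a_at the signals were 6.32, 6.21 and 8.75 in the same order, a 5.60-fold difference (2.49 ± 0.19). The untreated arrays were within 0.12 of each other on both, and the treated array was the high one on both. No detection call could be made, and the 23 background control probe sets of the array ran from 3.05 to 12.09, with medians of 3.82 and 3.73 in the untreated arrays, so both folds are ratios of signals and not of transcript amounts. The differences on the 2 probe sets were 2.09 apart, far more than the distance between the untreated arrays, so the direction is shared and the size is not.

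CYP1A2, the hepatic P450 of the same family, did not share this pattern. On probe set 11732108_x_at the signals were 9.20, 9.06 and 9.18 in untreated 1, untreated 2 and the treated array. On probe set 11732107_a_at they were 4.65, 5.00 and 4.81, a mean of 4.82 that lies under 5.85, the bound that set which genes were tested. The treated value fell between the untreated values on both, with differences of 0.05 and −0.010 from their mean. The suffix x marks probe sets in which some probes also match other sequences, so the brighter signal may not be that of CYP1A2 alone. The next coding genes on either side of the pair, named for their position only, were EDC3, which encodes a decapping factor, with differences of 0.17 and 0.52 on its 2 probe sets, and CSK, a kinase gene, with −0.17 to 0.0066 on 4.

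CYP1B1, the family member that prevails outside the liver and also hydroxylates oestrogens, had 5 probe sets, and 4 of them stood at least 2-fold above both untreated arrays. Probe set 11720411_s_at gave 5.31 in untreated 1, 5.96 in untreated 2 and 9.07 in the treated array, a 10.8-fold difference (3.43 ± 0.29). Probe set 11720409_s_at gave 6.55, 6.47 and 8.93, a 5.33-fold difference (2.42 ± 0.19). Probe set 11720410_s_at gave 5.89, 6.58 and 8.40 (4.49-fold, 2.17 ± 0.30). The treated array was the highest on all 3, and on 2 of them the untreated arrays lay 0.65 and 0.69 apart, untreated 2 higher. Probe set 11747104_s_at gave 5.97, 5.72 and 7.09, a smaller 2.37-fold difference (1.25 ± 0.21). Probe set 11745721_s_at gave 5.75, 5.55 and 5.59, with the treated array between the untreated ones (−0.05). The 5 differences for 1 gene thus ran from −0.05 to 3.43, with a median of 2.17. The suffix s marks probe sets whose probes may match transcripts of more than 1 gene. The last of the 5 was the only one whose mean lay below 5.85. With the tested genes brought to a common median, 11747104_s_at left the group at least 2-fold above both arrays (1.05).

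ALDH3A1, which oxidises aldehydes from lipid peroxidation and from the diet and air, was measured by 1 probe set, 11726360_a_at. It gave 9.33 in untreated 1, 9.40 in untreated 2 and 11.34 in the treated array, a 3.93-fold difference (1.98 ± 0.19). The untreated arrays were 0.07 apart and the treated array stood 1.94 above the nearer one. With 1 probe set there is no second measurement of this gene.

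**Figure D3:**
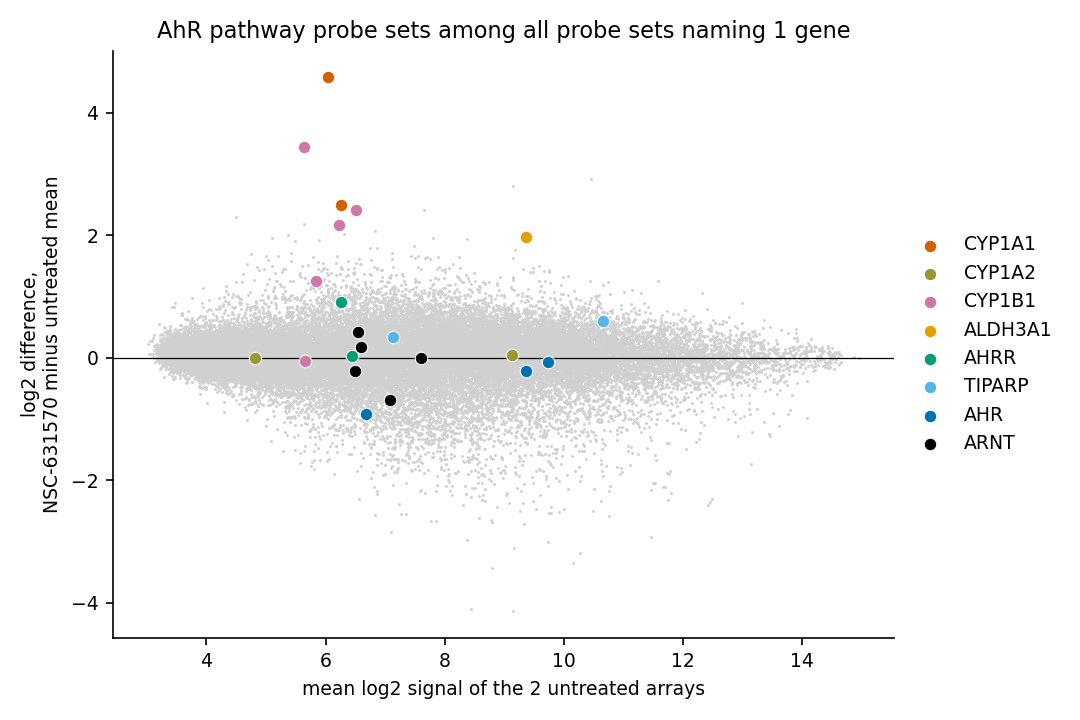
Log2 difference between the treated array and the untreated mean (y axis) against the mean log2 signal of the 2 untreated arrays (x axis), for all 44988 probe sets that name 1 gene (grey) and the 22 of the AhR pathway (colours). The highest point is CYP1A1 at 4.57, followed by CYP1B1 at 3.43, while AHRR, TIPARP, AHR and ARNT lie within the grey cloud. The 5th to 95th percentile of all these differences is −0.67 to 0.59, and AHRR at 0.91, AHR at −0.93 and ARNT at −0.70 lie outside it.

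The feedback genes differed less. AHRR on probe set 11729561_a_at gave 6.26 in both untreated arrays and 7.17 in the treated one, a 1.88-fold difference (0.91 ± 0.19), short of the 2-fold bound. Its other probe set, 11754841_a_at, gave 6.49, 6.39 and 6.46, with the treated array between the untreated ones (0.02). TIPARP on probe set 11717399_a_at gave 10.39 in untreated 1, 10.93 in untreated 2 and 11.25 in the treated array (1.51-fold, 0.59 ± 0.27). Its probe set 11755700_a_at gave 6.88, 7.38 and 7.47 (0.34 ± 0.25). The treated array was the highest on both TIPARP probe sets. Its distance to untreated 2 was 0.32 and 0.09, less than the distance between the untreated arrays, 0.54 and 0.50.

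All 3 probe sets of the receptor gene lay below the untreated mean, by amounts that differed widely, and those of its partner pointed both ways. AHR on probe set 11739681_x_at gave 9.35 in untreated 1, 10.10 in untreated 2 and 9.66 in the treated array, and on 11751921_s_at 9.10, 9.62 and 9.14. On both the treated array lay between the untreated ones, −0.07 and −0.21 from their mean. On 11739680_a_at the signals were 6.54, 6.83 and 5.76, and the treated array was the lowest, 1.90-fold below the untreated mean (−0.93 ± 0.21). From untreated 1 singly the 3 differences were 0.31, 0.05 and −0.78, and from untreated 2 they were −0.44, −0.47 and −1.07.

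ARNT, which also pairs with the hypoxia-inducible factors, had 5 probe sets, and its untreated arrays were within 0.07 of each other on all of them. The brightest, 11757749_s_at, gave 7.59, 7.61 and 7.60 in untreated 1, untreated 2 and the treated array. Probe set 11742052_a_at gave 7.06, 7.11 and 6.39 (−0.70 ± 0.19), and 11741381_a_at gave 6.46, 6.53 and 6.28 (−0.21). In the other direction, 11752225_a_at gave 6.54, 6.53 and 6.96 (0.43 ± 0.19), and 11741380_s_at gave 6.60, 6.59 and 6.77 (0.17). The treated array was above both untreated arrays on 2 probe sets, below both on 2 and between them on 1. These gaps exceed the distance between the untreated arrays, yet they point both ways for 1 gene. With the tested genes brought to a common median, the higher pair stood at 0.23 and −0.02 and the lower pair at −0.89 and −0.41.

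Probe sets of 1 gene read different parts of its transcripts, and array controls gave position-dependent values in the treated array. The control probe set for the 5′ end of ACTB was 2.59-fold below the untreated mean and that for its 3′ end was 0.20 above it on the log2 scale. For GAPDH the 5′ control was lower by 1.39-fold and the 3′ control was within 0.011. The background control probe sets had a median difference of 0.0093. The part of the 5′ signal in the disagreement between probe sets of CYP1A1, CYP1B1, AHRR, AHR and ARNT was not tested.

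The distance between the untreated arrays, which did not enter the choice of genes, varied among the members. Of the 22 probe sets 14 were higher in untreated 2, where 43.1% of all probe sets that name 1 gene were. All 5 of AHR and TIPARP were, by 0.29 to 0.75, and these genes are picked out with the values known. CYP1B1 had 2 probe sets higher in untreated 2 by 0.69 and 0.65 and 3 lower by up to 0.25, and CYP1A2 had 1 higher by 0.35 and 1 lower by 0.13. CYP1A1, ALDH3A1, AHRR and ARNT had untreated arrays within 0.12 of each other on every probe set. The median distance, in either direction, was 0.13 over the 22 probe sets and 0.17 over all that name 1 gene. With 1 array each, this is a description of those arrays.

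**Figure D4:**
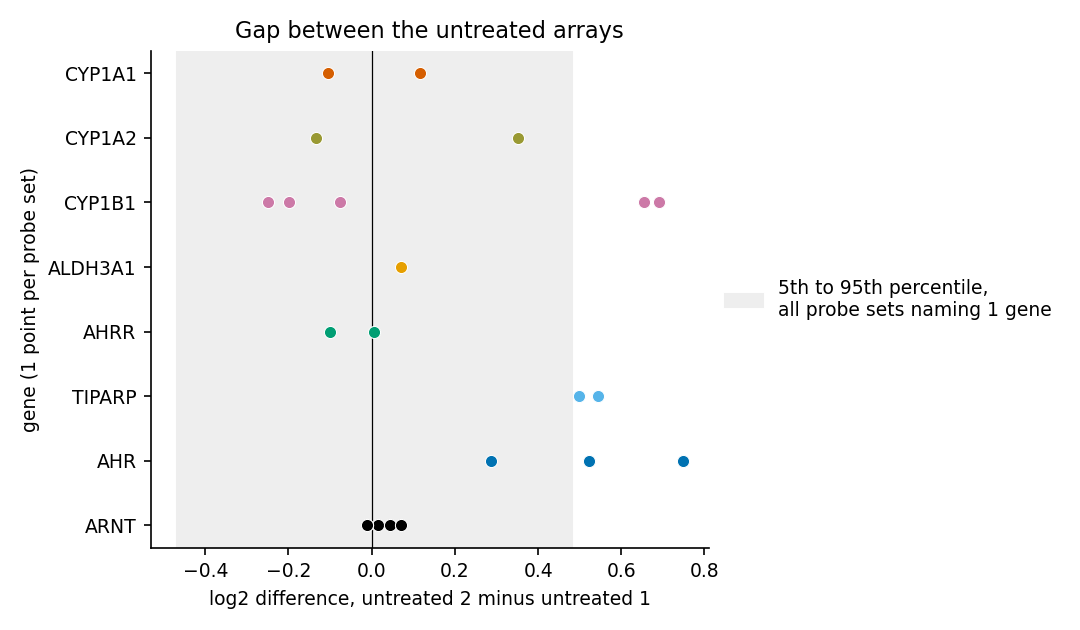
Log2 difference between the untreated arrays, untreated 2 minus untreated 1 (x axis), with 1 point per probe set and 1 line per gene. The grey band runs from the 5th to the 95th percentile of all probe sets that name 1 gene (−0.47 to 0.48); TIPARP, 2 of 3 AHR and 2 of 5 CYP1B1 probe sets lie to its right, and ARNT lies close to 0.

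The other genes around the receptor were taken from 5 lists and tested with limma over 11932 genes, each represented by its brightest probe set if its mean reached the 40th percentile of all probe sets (5.85). Limma with Benjamini-Hochberg adjustment called 8 of these genes, 0.067% (5 higher, 0.0419%, and 3 lower, 0.0251%). None of the 61 tested genes of the lists was among them, the smallest adjusted p in the lists being 0.0737. At an unadjusted p under 0.05, limma counted 9 list genes higher and 3 lower, where it counted 14.4% of all tested genes, 12.2% higher and 2.24% lower. The median tested gene lay 0.12 above the untreated mean, and 51.6% of tested genes were above both untreated arrays and 22.5% below both, so list counts are to be set beside those shares. Of the 80 symbols of the lists, 19 were not tested here. With the tested genes brought to a common median, all 5 list medians were negative, from −0.33 to −0.0056. The median difference of all tested genes was itself −0.08 under that setting, so the sign alone does not set the lists apart.

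Among chaperones and coactivators of the receptor, 8 of 13 tested genes were below both untreated arrays and 3 above both, and the median difference was −0.13. The chaperone genes HSP90AA1 (−0.42, adjusted p = 0.441), HSP90AB1 (−0.23) and PTGES3 (−0.07), whose products hold the receptor in its ligand-ready form, were all below both, and all 3 are named here with their values known. The largest differences were those of MED1, a Mediator subunit (−0.91, limma adjusted p = 0.152, with a median of −0.10 on its 2 other probe sets), the acetyltransferase EP300 (−0.57, adjusted p = 0.327) and the kinase SRC (0.54, adjusted p = 0.304, 0.78 on its other probe set). These 3 passed an unadjusted p of 0.05 and none passed the adjusted one.

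Other AhR targets gave no call either. Of 20 tested, 9 were above both untreated arrays and 4 below both, with a median difference of 0.16. The largest differences were those of HES1, a Notch-pathway repressor (0.76, limma adjusted p = 0.202, but a median of −0.18 on 4 other probe sets), PTGS2, the inducible cyclooxygenase (0.65, adjusted p = 0.437), and XDH, xanthine dehydrogenase (0.57, adjusted p = 0.282, and 0.74 on its other probe set). The cytokine gene IL6 stood at −0.56 (adjusted p = 0.609), equal to untreated 1 within 0.0013 and 1.12 below untreated 2. NQO1, the quinone reductase that AhR and NRF2 both induce, gave 13.40 in untreated 1, 13.56 in untreated 2 and 13.61 with the extract (0.13, adjusted p = 0.864). SLC7A5 stood at 0.19 on its brightest probe set (limma adjusted p = 0.807) and at −1.91 on its other one. IL6, NQO1 and SLC7A5 were named after their values were seen. PTGS2 was 1.08 above untreated 1 but only 0.23 above untreated 2, with a median of 0.50 on its 2 other probe sets. In this list untreated 2 was higher than untreated 1 for 16 of 20 genes, by a median of 0.34, where 47.0% of all tested genes were higher in untreated 2. UGT1A1 and UGT1A6 share probe sets with other genes of their cluster and were not used.

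The tryptophan and kynurenine pathway is a source of AhR ligands. On the brightest probe set of each gene, its enzymes held the largest differences of the 5 lists, in both directions. KYNU, kynureninase, gave 5.99 in untreated 1, 6.38 in untreated 2 and 7.85 in the treated array, a 3.17-fold difference (1.66 ± 0.24, limma adjusted p = 0.0737), while its 2 other probe sets had a median of 0.14. AFMID, kynurenine formamidase, gave 8.30, 8.61 and 7.13 (2.51-fold lower, −1.33 ± 0.23, adjusted p = 0.09), with −0.31 on its other probe set. AADAT, kynurenine aminotransferase II, stood at 0.65 (adjusted p = 0.251). The list median was 0.0062 over 8 tested genes, 2 of them above both untreated arrays and 2 below both. IDO1, IDO2, TDO2, KMO and TPH1 did not reach the filter.

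Relatives of the members gave no call. Of 10 tested bHLH-PAS genes, 3 were above both untreated arrays and 3 below both (median −0.08). They were led by the clock genes BMAL2 (0.61, limma adjusted p = 0.268), CLOCK (−0.37) and BMAL1 (0.35). CLOCK stood at −0.04 on its other probe set. BMAL1 was 0.63 above untreated 1 and 0.06 above untreated 2, with a median of −0.29 on its 2 other probe sets. HIF1A (−0.03) and EPAS1 (−0.29), whose products compete for ARNT, were named after their values were seen. ARNT2, the close relative of ARNT, did not reach the filter. Of 11 paralogs of ALDH3A1 and TIPARP, 8 were above both arrays and none below both (median 0.19). PARP12 (0.87, adjusted p = 0.15), ALDH3B1 (0.83, adjusted p = 0.158, a median of 0.08 on its 2 other probe sets) and PARP9 (0.76, adjusted p = 0.29, a median of 0.07 on its 2 other probe sets) led that list. PARP9 and PARP12 are also known as interferon-induced genes.

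**Figure D5:**
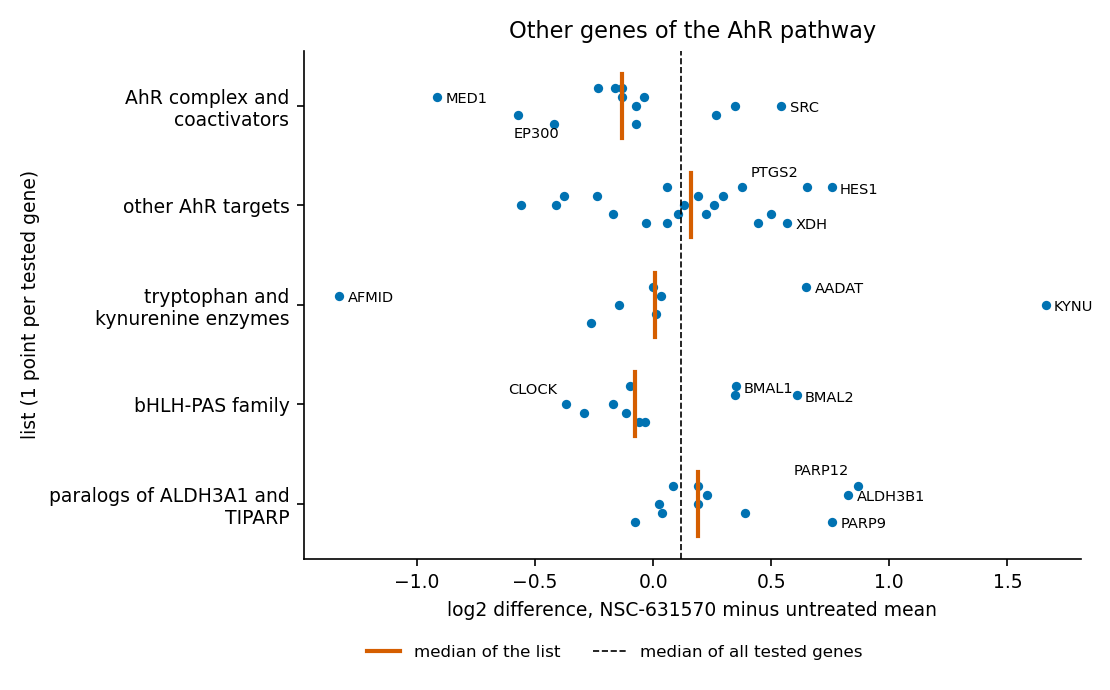
Log2 difference between the treated array and the untreated mean (x axis) for each tested gene of 5 lists, 1 point per gene, with the 3 largest of each list named. Orange bars are list medians, from −0.13 to 0.19, and the dashed line is the median of all tested genes at 0.12; KYNU and AFMID lie farthest from it, and no gene passed limma after adjustment.

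Among the 11931 other tested genes, those nearest to CYP1A1 by Euclidean distance over the 3 arrays, each gene centred on its untreated mean, were CYP1B1 (distance 2.16), ISG20 (2.17), ALDH3A1 (2.60), SPOCK1 (2.63) and NAV3 (2.69). With each gene centred in this way, the distance is nearly the gap between the treated differences, by which the members were chosen, so the place of CYP1B1 and ALDH3A1 among the 5 repeats that choice. NAV3 gave 7.33, 8.27 and 9.75, and its other probe set was −0.08.

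As a check of the cell type, 7 squamous and epithelial markers used here, among them KRT5 (13.21, 13.39 and 12.91 in untreated 1, untreated 2 and the treated array) and KRT14 (10.74, 10.35 and 11.49), were all above the filter. KRT5 stood at −0.39 there and at −2.30 on its other probe set. The other probe set of CDH1 was at −1.33 and that of DSG3 at −0.72. EPCAM had a median of −0.41 and PKP1 of 0.50 on 2 others each. KRT6A, KRT17 and TP63 were listed too, but no probe set named them alone. Of 8 fibroblast markers 2 passed the filter, as did 3 of 5 endothelial and 3 of 5 hepatocyte markers, so passing it does not by itself separate cell types. PTPRC, the common leukocyte gene, did not pass. Of 6 leukocyte markers named on the array 4 passed. Their mean was 7.12 in untreated 1, 6.97 in untreated 2 and 7.60 in the treated array. Their differences were 1.46 for CD68, 0.82 for CD14, 0.20 for CD3E and −0.25 for TYROBP. On the other probe set of each gene they were 0.57, 0.57, −0.10 and 0.16 in that order. The part of other cells in the results was not tested. Detection could not be called for any gene.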

How the data were processed

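Each array has 1 deposited log2 signal per probe set. The authors used Affymetrix Expression Console, per the submitters' processing notes. The sources used here give no version, algorithm, normalization or genome build. The log2 scale was read from the values (2.92 to 14.95). The values were used as deposited. Probe sets were named through the platform annotation (44988 named 1 gene, 1832 several, 2473 none, 102 are controls), with symbols checked against RefSeq.

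The members and lists were chosen with earlier results of these data known. Member probe sets were described without a test. For other genes, the brightest probe set was kept where its mean reached the 40th percentile (5.85), and limma (version 3.58.1, R version 4.3.3) compared treated with untreated arrays with Benjamini-Hochberg adjustment at 0.05, after a test on simulated data. It rests on 1 residual degree of freedom and assumes that the treated array varies like the untreated ones. P-values measure only the spread between 2 untreated arrays, which may be technical, and the small number of arrays limits their precision. Limma draws the spread of each gene toward that of all tested genes, with 6.90 prior degrees of freedom. P-values thus rest mostly on the spread pooled over genes and less on a gene's own. The standard errors of member probe sets were moderated in the same way over all probe sets that name 1 gene.

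All members were named, with the genes past the threshold or else the 3 largest differences of each list, and the 5 genes nearest to CYP1A1. Promoters are the 250 bases before RefSeq starts (GRCh38.p14). Alternatives were other scalings, filters, probe set rules, an intensity trend, a 1.5-fold rule and leaving out each untreated array.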

Additional observations from a re-analysis of the deposited data

How the results depend on the processing

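The count of 7 member probe sets at least 2-fold above both untreated arrays was 6 or 7 under every alternative that kept the 2-fold rule. Under a 1.5-fold rule it was 8. With an untreated array left out, the treated array was compared with the remaining one. No member probe set among those 7 changed sign. The count below both was 0, became 2 under a 1.5-fold rule (1 probe set each of AHR and ARNT) and ran from 0 to 1 when an untreated array was left out. The 8 genes called over all genes (5 higher, 3 lower) became 4 after quantile normalisation, 136 (111 higher, 25 lower) with a common median over all probe sets, 50 (21 higher, 29 lower) when tested genes alone were brought to a common median, 4 without a filter, 21 with a filter at the 60th percentile, 3 when the probe sets of each gene were averaged, 799 (151 higher, 648 lower) with each probe set fitted on its own and 31 with an intensity trend. The list genes called, 0 as reported, were 2 with either common median (AFMID and KYNU), 4 with each probe set on its own (AFMID, KYNU, DDB1 and SLC7A5) and 1 with an intensity trend (KYNU). The cause of these changes was not tested. Among the 15 other member probe sets the sign changed for 4 when tested genes were brought to a common median, which lowers every difference by 0.20, for 1 with a common median over all probe sets, for 2 without untreated replicate 1, for 5 without untreated replicate 2 and for 0 after quantile normalisation. Without untreated replicate 2 the brightest AHR probe set stood at 0.31 and without untreated replicate 1 at −0.44. No paired analysis was possible because the treated group has 1 array. Limma could not be fitted with an untreated array left out, since no residual degree of freedom remains.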
